A study of Mus musculus with 18 samples.

Results

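The genes described here are the replication-dependent histone genes, the multi-copy genes that supply the core histones of chromatin. Members were the rows of the deposited liver table whose symbol begins with H2ac, H2bc, H3c or H4c, or with the older names Hist1h, Hist2h or Hist3h, followed by a letter or digit, with pseudogenes left out. This gave 51 of 18946 genes: 14 for H2A, 13 for H2B, 12 for H3 and 12 for H4. All 51 carried the newer symbols, and 41 lie on chromosome 13 and 10 on chromosome 3. The linker histone genes H1f1 to H1f5 fall outside the symbol rule.

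RNA was sequenced from the livers of male C57BL/6J mice, an inbred laboratory strain, 8 Young and 10 Old. The labels put the Young mice at 6.18 months and the Old mice at 19.76 months, the design text rounds these to 6 and 20, and the growth protocol gives 21 for the Old mice. Both ages had been fasted for 14 hours and had then gone through a 150-minute hyperinsulinemic-euglycemic clamp, an insulin infusion with blood glucose held level, so that both groups share the insulin and no liver without it was compared. Libraries were made after ribosomal RNA depletion, without selection of poly(A) tails, from RNA of 2 extraction kits: AllPrep for 3 Young and 5 Old livers, RNeasy for 5 Young and 5 Old livers. Each library is 1 mouse, and the labels give all mice the same day of sacrifice.

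Core histones form the protein spool around which DNA is wound: a pair of H3-H4 dimers is flanked by H2A-H2B dimers. The replication-dependent genes are transcribed mainly in S phase, when new DNA has to be packed. Their mRNAs usually end in a conserved stem-loop in place of a poly(A) tail; the stem-loop binding protein Slbp holds it, and the mRNA is degraded when DNA synthesis stops. Liver cells of adult mice divide rarely, and some histone genes also give longer, polyadenylated transcripts in cells that do not divide.

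The stem-loop is shown first because it is the feature that most of the members share and that the symbol rule did not use. It was found in the reference transcripts of 36 of the 51 members, against 68 of 21901 protein-coding genes (0.31%). The 6 sequences below are the stem-loops of 2 members that were higher in Old livers (H2ac4 and H4c9), of the 3 most abundant members (H4c4, H4c3 and H4c8) and of H2bc3. Capitals mark the 16 bases of stem and loop, with 5 flanking bases on each side.
H2ac4: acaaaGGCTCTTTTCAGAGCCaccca
H2bc3: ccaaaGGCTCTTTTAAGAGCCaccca
H4c9: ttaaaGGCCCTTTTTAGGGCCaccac
H4c4: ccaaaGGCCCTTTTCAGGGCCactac
H4c3: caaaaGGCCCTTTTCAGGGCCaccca
H4c8: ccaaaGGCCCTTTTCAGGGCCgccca

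The stem differed between the classes. All 8 H2A, 8 H2B and 9 H3 stem-loops opened with GGCTC and closed with GAGCC. Of the 11 H4 stem-loops, 9 opened with GGCCC and 2, those of H4c2 and H4c11, with GGTCC. No match in the other 15 members says only that these letters are not in the transcript that was searched. Some of these transcripts were shorter than the gene length behind the TPM values, so that part of the gene was not searched. That of H4c12, the shortest, had 312 bases against 409, and that of H2bc18 had 381 against 493. The group without a match includes H2bc21 and H2bc4, whose gene lengths behind the TPM values, 2667 and 2303 bases, are long for this family. H2bc6, which has a match, is also long with 2510 bases, and the other 48 ran from 375 to 911.

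Promoters also differed between the classes. Of the 51 members, 46 had an entry in the RefSeq promoter table (GRCm38.p6), with 47 promoters of 250 bases before and 50 after the start. The CCAAT box, searched as CCAAT on both strands, was present in 14 of 14 H2A, 12 of 12 H2B and 10 of 10 H3 promoters but in 3 of 11 H4 promoters, against 37.4% of all 32851 promoters. The octamer ATTTGCAT, the site to which Oct-1 is known to bind in H2B promoters, was present in 5 H2A, 6 H2B, 0 H3 and 0 H4 promoters, against 1.74% of all promoters. TATAAA was present in 27 of the 47 (57.4%, against 13.6%) and TTTCGCGC, an E2F-type element, in 8 of the 47 (17.0%, against 0.323%). The 250 bases before the start are given for the members called higher in Old livers that had an entry and for H2bc3, whose promoter holds an octamer: H2ac4 (chr13:23750838-23751087, plus strand), H2bc3 (chr13:23746484-23746733, plus strand) and H4c9 (chr13:22041363-22041612, minus strand). Capitals mark matches on either strand, so that ATTGG is CCAAT and ATGCAAAT the octamer on the other strand.
H2ac4: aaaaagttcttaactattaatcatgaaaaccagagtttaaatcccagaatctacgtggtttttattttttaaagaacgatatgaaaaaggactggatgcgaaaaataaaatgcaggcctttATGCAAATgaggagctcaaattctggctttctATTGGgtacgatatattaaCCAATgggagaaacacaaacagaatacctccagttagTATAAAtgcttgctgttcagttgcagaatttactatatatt
H2bc3: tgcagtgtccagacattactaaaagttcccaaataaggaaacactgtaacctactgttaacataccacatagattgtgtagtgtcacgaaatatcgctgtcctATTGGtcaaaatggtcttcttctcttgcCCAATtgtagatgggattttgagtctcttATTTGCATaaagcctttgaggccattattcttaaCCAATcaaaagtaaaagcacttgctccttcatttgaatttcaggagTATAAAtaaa
H4c9: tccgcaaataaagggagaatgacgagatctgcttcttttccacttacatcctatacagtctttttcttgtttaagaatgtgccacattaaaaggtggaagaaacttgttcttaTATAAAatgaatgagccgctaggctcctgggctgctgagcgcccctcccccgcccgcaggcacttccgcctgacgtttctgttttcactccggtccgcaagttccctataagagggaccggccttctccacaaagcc

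The members are close copies of each other. When each reference transcript was read in windows of 100 bases, 24 of the 51 members had under 50% of windows that occur in no other transcript, 5 of these (H2ac18, H2ac19, H3c13, H3c14 and H2bc18) had 0%, and 3 (H2bc21, H4c4 and H4c14) had 100%. Of the members described most closely below, H4c9 had 84.9% and H2ac4 47.6% unique windows. The transcript read was the longest protein-coding one of each gene, and its length often differs from the gene length behind the TPM values. It had 727 bases against 403 for H4c9, 473 against 505 for H2ac4 and 381 against 493 for H2bc18. The shares therefore describe the reference transcripts and not exactly the sequence that was counted. The sources used here do not say how reads that fit several copies were counted, and levels of single members are uncertain where copies share windows.

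Reads over the listed genes, recovered from the TPM values, came to 85790735 to 127487820 per library. Levels are TPM, which corrects for gene length, divided by 1 composition factor per library, and are called scaled TPM below. No member was at 0 in any library: single members had 3 to 9429 reads, and 6 had fewer than 10 reads in at least 1 library, which limits the precision of the lowest levels. No pair of libraries of the same age agreed within sampling noise (lowest chi-square per degree of freedom 38.5 among Young and 75.1 among Old pairs). Old replicates 5 and 14 stood apart from the other Old livers across most members, as described below.

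H4 genes gave most of the signal. Summed scaled TPM over all members was 1043 ± 187 (SD, n = 8) in Young and 1090 ± 284 (SD, n = 10) in Old livers, and the H4 genes held 75.2% of the sum, the H2B genes 13.5%, the H2A genes 5.77% and the H3 genes 5.54%. The 3 highest members were the H4 genes H4c4, H4c3 and H4c8, with means of 220.9, 210.1 and 196.0 scaled TPM, and held 58.7% of the sum. The ranges of these 3 overlapped: H4c4 ran from 152 to 337, H4c3 from 130 to 334 and H4c8 from 107 to 323 over the 18 livers. Differences between them within each liver were not tested. Next came H2bc4 with 64.1, H4c2 with 53.5 and H4c14 with 41.1.

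Within each class 1 or a few genes led. Among the H2A genes H2ac20 was highest at 28.8 scaled TPM, followed by H2ac4 at 8.24. Among the H3 genes H3c6 led with 15.1 and H3c13 had 8.68. H2bc8, the second H2B gene, had 21.7. Only 10 members averaged at least 20 scaled TPM, a boundary set after the levels were seen, and these held 82.7% of the sum. The other 41 ran down to 0.682 (H2ac12, the 1 member that did not reach the minimum level for testing), and 6 averaged under 1.

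**Figure D1:**
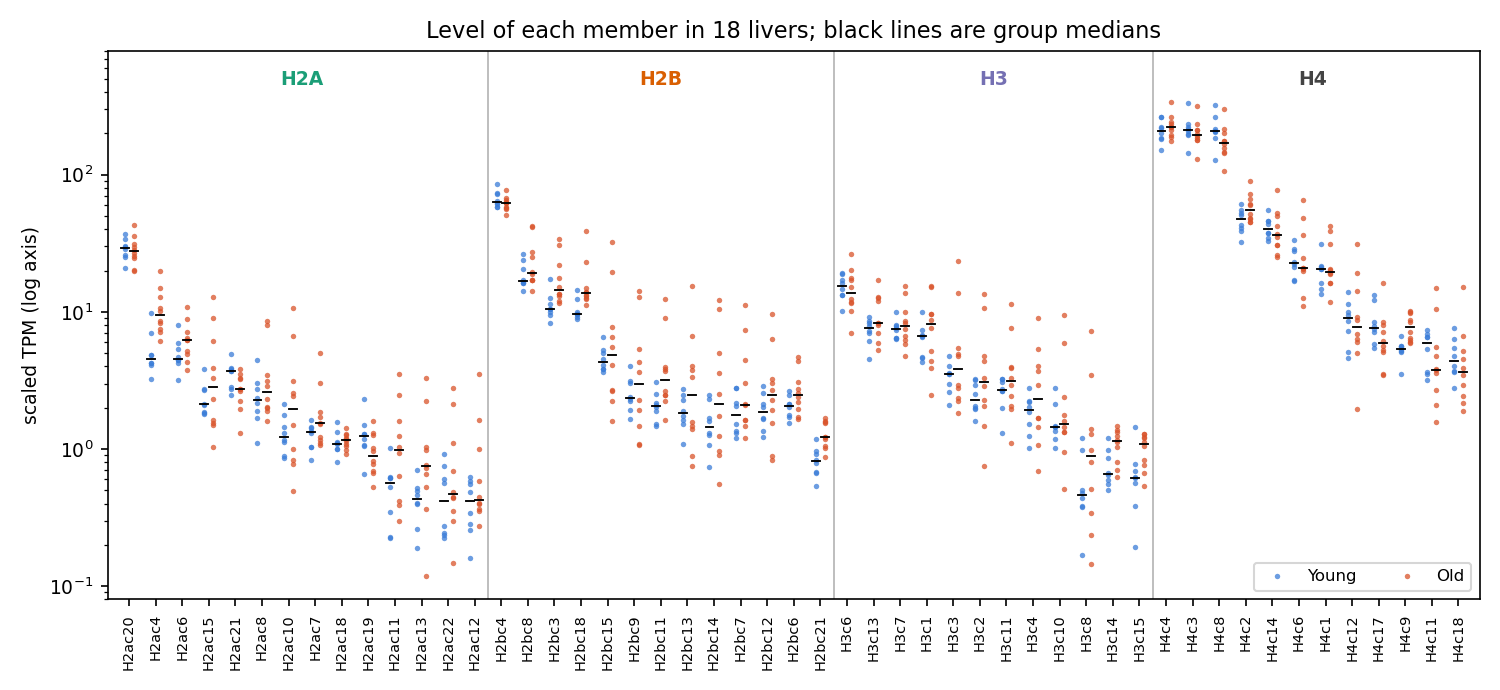
Level of each of the 51 members in every liver, in scaled TPM on a log axis, grouped by histone class and ordered by mean level. Each point is 1 liver (blue Young, red Old) and black lines are group medians; the 3 leading H4 genes lie above 100 in all 18 livers, while most H2A, H2B and H3 genes lie under 10 with a few Old livers far above the rest.

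The age comparison asked which members differ between Young and Old livers, with the kit as a second term in limma, a linear model fitted across all genes, on log2(scaled TPM + 0.5). Adjusted p-values are Benjamini-Hochberg values over all genes tested. H2ac4, H4c9 and H2bc21 were higher in Old livers and no member was lower. This is 3 of the 50 members tested at an adjusted p under 0.05, where 2.44% of all 13895 genes tested were called higher and 2.47% lower. Without the adjustment, 10 members had a p under 0.05, all of them higher in Old, where 11.8% of all genes were higher at that level. The estimate was positive for 38 of the 50 (50.9% of all genes), and the median was 0.28 against 0.0037 over all genes. With limma-voom on the recovered reads 2 members were higher, against 1.89% of all genes. In no member were the groups apart without overlap, which holds for 0.216% of all genes in the higher and 0.202% in the lower direction.

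H2ac4, an H2A gene of the chromosome 13 cluster, ran from 3.26 over a median of 4.52 to 9.80 scaled TPM in the Young and from 6.12 over 9.41 to 19.7 in the Old livers. All 10 Old livers lay above the Young median and 5 above the highest Young liver, while 6 of 8 Young livers lay below every Old one. The difference was 0.86 ± 0.18 (SE) on the log2(scaled TPM + 0.5) scale (limma, adjusted p = 0.0143). It was 0.78 in the AllPrep and 0.92 in the RNeasy livers, with limma adjusted p-values of 0.21 and 0.152. No member was called in either kit alone, where 0.705% of all genes were higher and 0.396% lower in the AllPrep livers and 0.0504% in each direction in the RNeasy livers. Without adjustment, 7 members in the AllPrep and 5 in the RNeasy livers had a p under 0.05, all of them higher in Old. The share of all genes at that level was not counted in these fits, so the counts have no background beside them. Old replicates 5 and 14 were the 2 highest livers at 19.7 and 15.0. Without both of them the difference was 0.67 with an adjusted p of 0.0098 in limma. These 2 livers were left out after the levels were seen, so p-values without both, here and below, are descriptive only.

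H4c9, an H4 gene of the same cluster, ran from 3.55 over 5.39 to 6.67 in the Young and from 5.93 over 7.80 to 10.1 in the Old livers. All 10 Old livers again lay above the Young median and 6 above the highest Young liver. The difference was 0.52 ± 0.13 (SE; limma, adjusted p = 0.027), with 0.72 within AllPrep and 0.37 within RNeasy. It was not called without Young replicate 1 (adjusted p = 0.0504) or Young replicate 13 (0.0561), nor with limma-voom on the recovered reads (0.0624). Without Old replicates 5 and 14 it was 0.43 with a limma adjusted p of 0.0377.

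H2bc21, an H2B gene on chromosome 3 with a long gene model and no stem-loop match, was low, from 0.537 over 0.812 to 1.17 in the Young and from 0.879 over 1.23 to 1.68 in the Old livers. It rested on 69 to 231 reads per library. All 10 Old livers lay above the Young median and 7 above the highest Young liver, Old replicate 6 by less than the digits printed here. The difference was 0.44 ± 0.11 (SE; limma, adjusted p = 0.0314), with 0.56 within AllPrep and 0.35 within RNeasy. Leaving out 1 library ended the call in 8 of 18 cases (Young replicates 1, 2, 4, 11 and 13 and Old replicates 7, 9 and 15), with adjusted p-values up to 0.0695. Of the 3 called members it was the 1 in which Old replicate 5 was not high (1.06), and without Old replicates 5 and 14 the difference was 0.43 (limma, adjusted p = 0.0305).

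**Figure D2:**
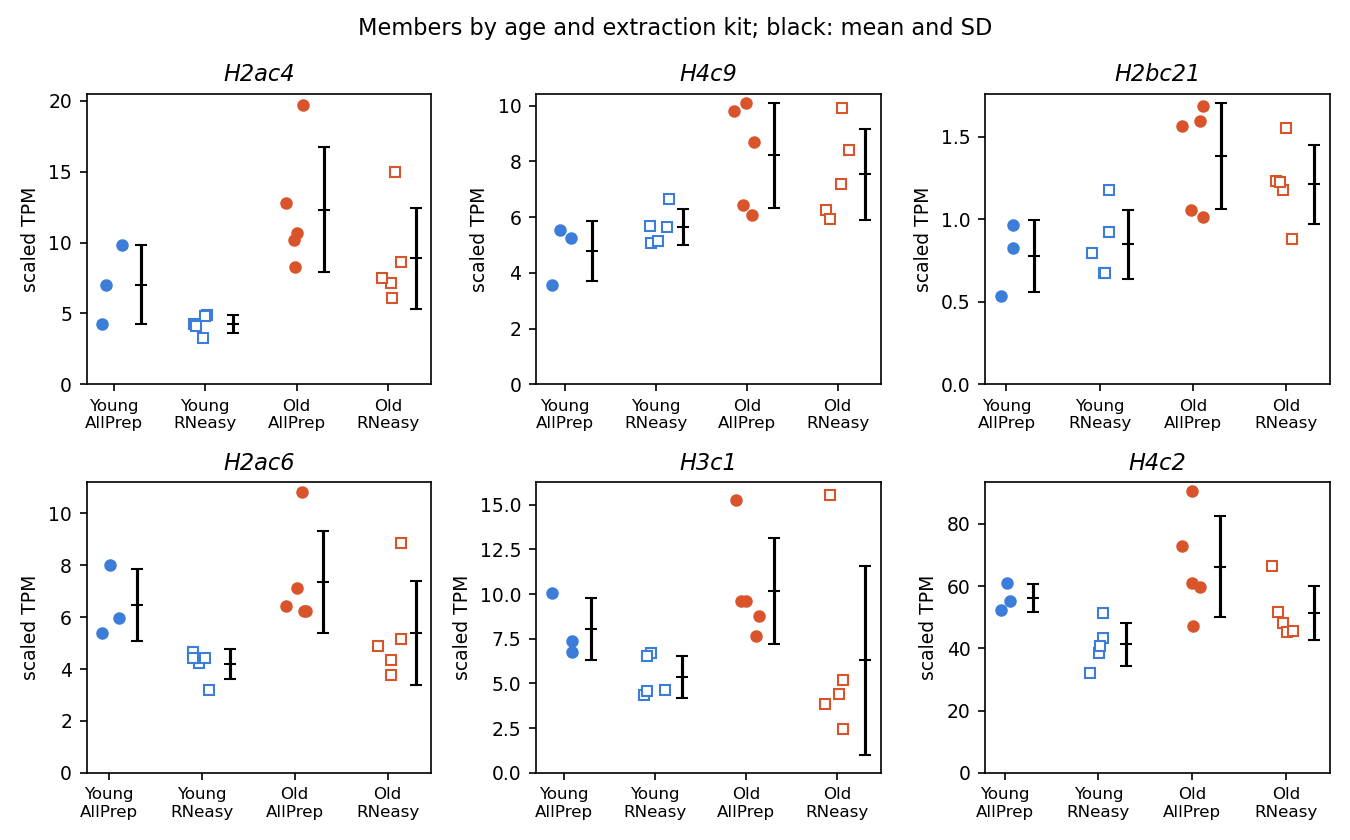
Scaled TPM of 6 members in every liver, by age and kit (filled circles AllPrep, open squares RNeasy; black marks are mean and SD of 3 to 5 livers). In the upper row, members called for age, Old livers lie above Young ones within both kits, with overlap in some panels. In the lower row, members called for kit, AllPrep livers lie above most RNeasy livers at both ages. The exception is H4c2 in Old replicate 9, an AllPrep liver at 47.13 that lies below most Old RNeasy livers.

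The number of calls depended on single Young livers. Without Young replicate 1 or Young replicate 13, 1 member was called higher, and without the other libraries in turn 2 to 4, with 4 when Old replicate 16 was left out. These counts have no share of all genes beside them. Body weight at the clamp, as labelled, did not overlap between the ages, so that age and weight cannot be told apart; with weight as a further limma term no member was called, and of all genes 0.0216% were called higher and 0% lower. In the fit with weight 8 members had an unadjusted p under 0.05, all higher in Old, and the share of all genes at that level was not counted. H2ac4, H4c9 and H2bc21 had estimates of 0.92, 0.55 and 0.21 in the same fit. In bulk liver RNA, fewer cells of a type and less RNA per cell cannot be told apart.

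Members of the 4 classes differed in where their estimates lay. The median age estimate was 0.30 over 13 H2A genes, 0.38 over 13 H2B genes, 0.32 over 12 H3 genes and -0.05 over 12 H4 genes. Estimates were positive for 10, 12, 11 and 5 genes in that order. These medians rested in large part on Old replicates 5 and 14: without both they were 0.01, 0.07, -0.05 and -0.26, and the median over the 49 members then tested was -0.04, with 20 positive. Without Old replicate 14 alone the median over members was 0.06, and without Old replicate 5 alone 0.20. The calls moved little: 4 members were higher without both, namely H2ac4, H4c9, H2bc21 and H2bc18, where 4.21% of all genes were called higher.

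None of the 3 most abundant H4 genes was called for age. H4c4 was at 210 ± 38.7 (SD, n = 8) in Young and 229 ± 46.1 (SD, n = 10) in Old livers, a difference of 0.09 ± 0.10 (SE), and H4c3 at 219 ± 53.7 (SD) and 203 ± 47.8 (SD), a difference of -0.12 ± 0.15 (SE). The groups overlapped almost fully in both: 7 of 10 Old livers lay above the Young median for H4c4 and 2 of 10 for H4c3. H4c8 was at 217 ± 56.9 (SD) in Young and 179 ± 52.8 (SD) in Old livers, a difference of -0.32 ± 0.16 (SE; limma, adjusted p = 0.246), with 2 of 10 Old livers above the Young median and 0 above the highest Young liver. Without Old replicates 5 and 14 the estimates for H4c4, H4c3 and H4c8 were 0.02, -0.19 and -0.38. H4c2 was at 46.8 ± 9.64 (SD) and 58.8 ± 14.6 (SD), a difference of 0.27 ± 0.11 (SE), with 7 of 10 Old livers above the Young median (limma, adjusted p = 0.169), and 0.16 without these 2 livers. Without them the lower H4 genes H4c11, H4c17 and H4c18 had estimates of -0.64, -0.60 and -0.47 with limma adjusted p-values of 0.0569, 0.0549 and 0.164.

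Among the H2B genes, H2bc18 and H2bc3 had larger estimates than H2bc21 and were not called. H2bc18 ran from 8.90 over 9.71 to 14.5 in Young and from 11.1 over 13.6 to 38.9 in Old livers, and all 10 Old livers lay above the Young median. Its estimate was 0.57 ± 0.20 (SE; limma, adjusted p = 0.0961), with the value of 38.9 in Old replicate 14 and 22.9 in Old replicate 5. Without these 2 libraries the estimate was smaller, 0.32 ± 0.09 (SE), and was called (limma, adjusted p = 0.0454). Leaving out the 2 highest Old values after they were seen narrows the spread, so that this call cannot be read as a test. None of the 100-base windows of its reference transcript is unique to H2bc18. H2bc3 ran from 8.34 over 10.5 to 17.5 in Young and from 11.7 over 14.4 to 34.2 in Old livers (0.56 ± 0.20, SE; limma, adjusted p = 0.0995). Its 2 highest values were 34.2 in Old replicate 14 and 30.8 in Old replicate 5, against 11.7 to 22.0 in the other Old livers, and without both the estimate was 0.33 (limma, adjusted p = 0.0835).

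H2bc11, H3c14 and H3c15 complete the 8 members of smallest p. H2bc11 was at 2.10 ± 0.522 (SD) in Young and 4.44 ± 3.47 (SD) in Old livers (0.67 ± 0.28, SE; limma, adjusted p = 0.157). Its Old values of 9.01 and 12.35 in replicates 5 and 14 stood against 1.63 to 3.98 in the other 8. The estimate was 0.42 without Old replicate 14 and 0.30 without both (limma, adjusted p = 0.148 and 0.0916). H3c14 and H3c15, 2 H3 genes on chromosome 3 with few unique windows, did not have that pattern: both averaged under 1 scaled TPM, with estimates of 0.35 ± 0.13 (SE) and 0.42 ± 0.16 (SE) and limma adjusted p-values of 0.115 and 0.133, and their estimates without Old replicates 5 and 14 were 0.36 and 0.42. The leading genes H2ac20, H2bc4, H2bc8, H3c6 and H3c13 had age estimates of -0.06, -0.13, 0.21, -0.16 and 0.26, none of them called.

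**Figure D3:**
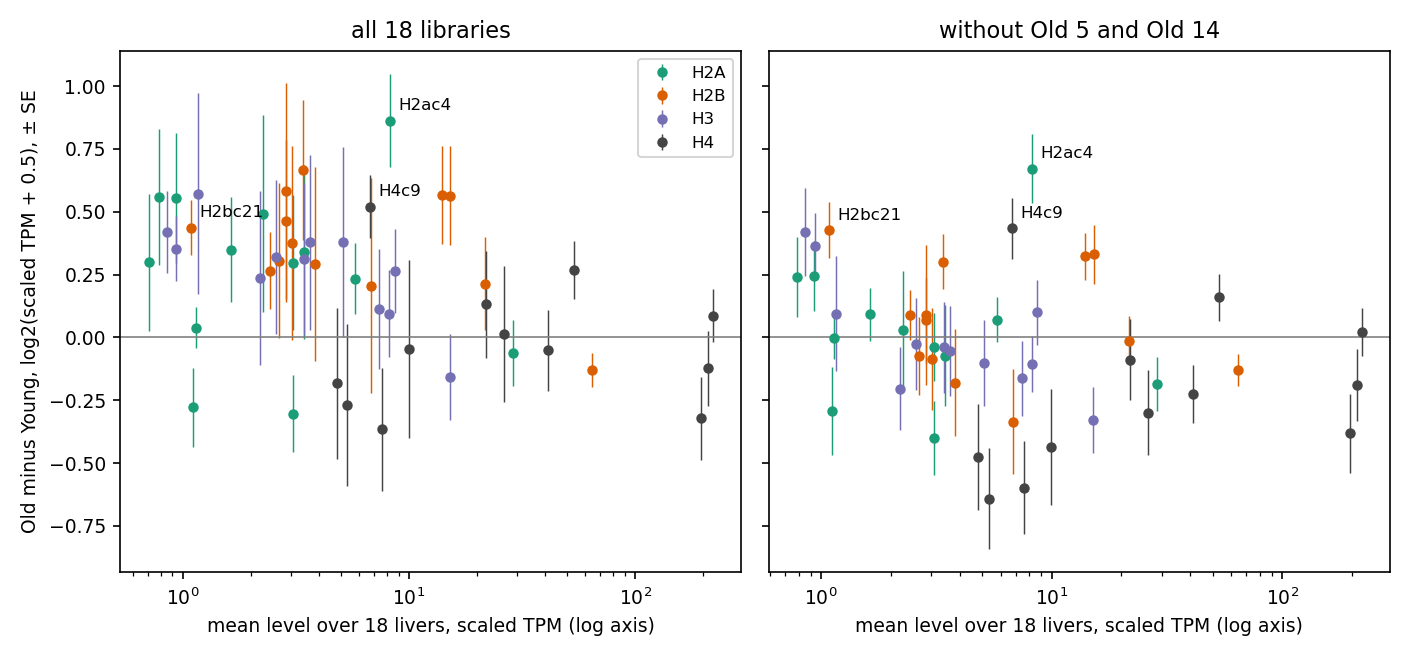
Age estimate of each tested member, Old minus Young on the log2(scaled TPM + 0.5) scale with its SE, against mean level (log axis), coloured by histone class. The left panel uses all 18 libraries (median 0.28 over 50 members) and the right leaves out Old replicates 5 and 14 (median -0.04 over 49 members); H2ac4, H4c9 and H2bc21 have positive estimates, from 0.43 up, in both.

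Old replicates 5 and 14 were the libraries in which most members were high. They were the 2 highest Old livers in 38 of the 50 tested members, where this holds for 3.81% of all genes tested. The 2 livers were singled out after the levels of these members were seen, so this count describes them and is not a test. Over all 18 livers, Old replicate 14 was highest for 31 and Old replicate 5 for 11 of the 51 members. The share of all genes for which either liver was highest was not counted. The 2 livers differ in kit: Old replicate 5 was extracted with AllPrep and Old replicate 14 with RNeasy.

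As a ratio to the Young median, the excess was larger in members of low level. Over the 41 members under 20 scaled TPM, the median ratio to the Young median was 3.82 in Old replicate 14 (0.828 to 15.8) and 2.84 in Old replicate 5 (0.78 to 7.52). In the other Old livers that median ran from 0.586 (Old replicate 17) to 1.65 (Old replicate 9). Over the 10 members at or above 20, it was 1.31 in Old replicate 14 and 1.55 in Old replicate 5, so that the 2 livers differed from each other: in Old replicate 14 the leading H4 genes were near or below the Young median, with ratios of 1.06 for H4c4, 0.902 for H4c3 and 0.709 for H4c8, while in Old replicate 5 they were at 1.61, 1.49 and 1.46. Summed over the H4 genes, Old replicate 5 had 1240 scaled TPM and the other 9 Old livers 557 to 893. Summed over the 10 members at or above 20, Old replicate 5 had 1350. On that sum the other Old livers had 628 to 934 and the Young livers 629 to 1210.

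By class, the H3 genes summed to 139 in Old replicate 14 and 122 in Old replicate 5, against 28.3 to 70.6 in the other Old and 41.05 to 63.6 in the Young livers. The H2B genes summed to 279 and 250 in the 2 livers, against 109 to 158 in the other 16. The H2A genes summed to 116 and 115, against 42.5 to 70.8. In all 3 classes the 2 livers lay outside the range of the rest.

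**Figure D4:**
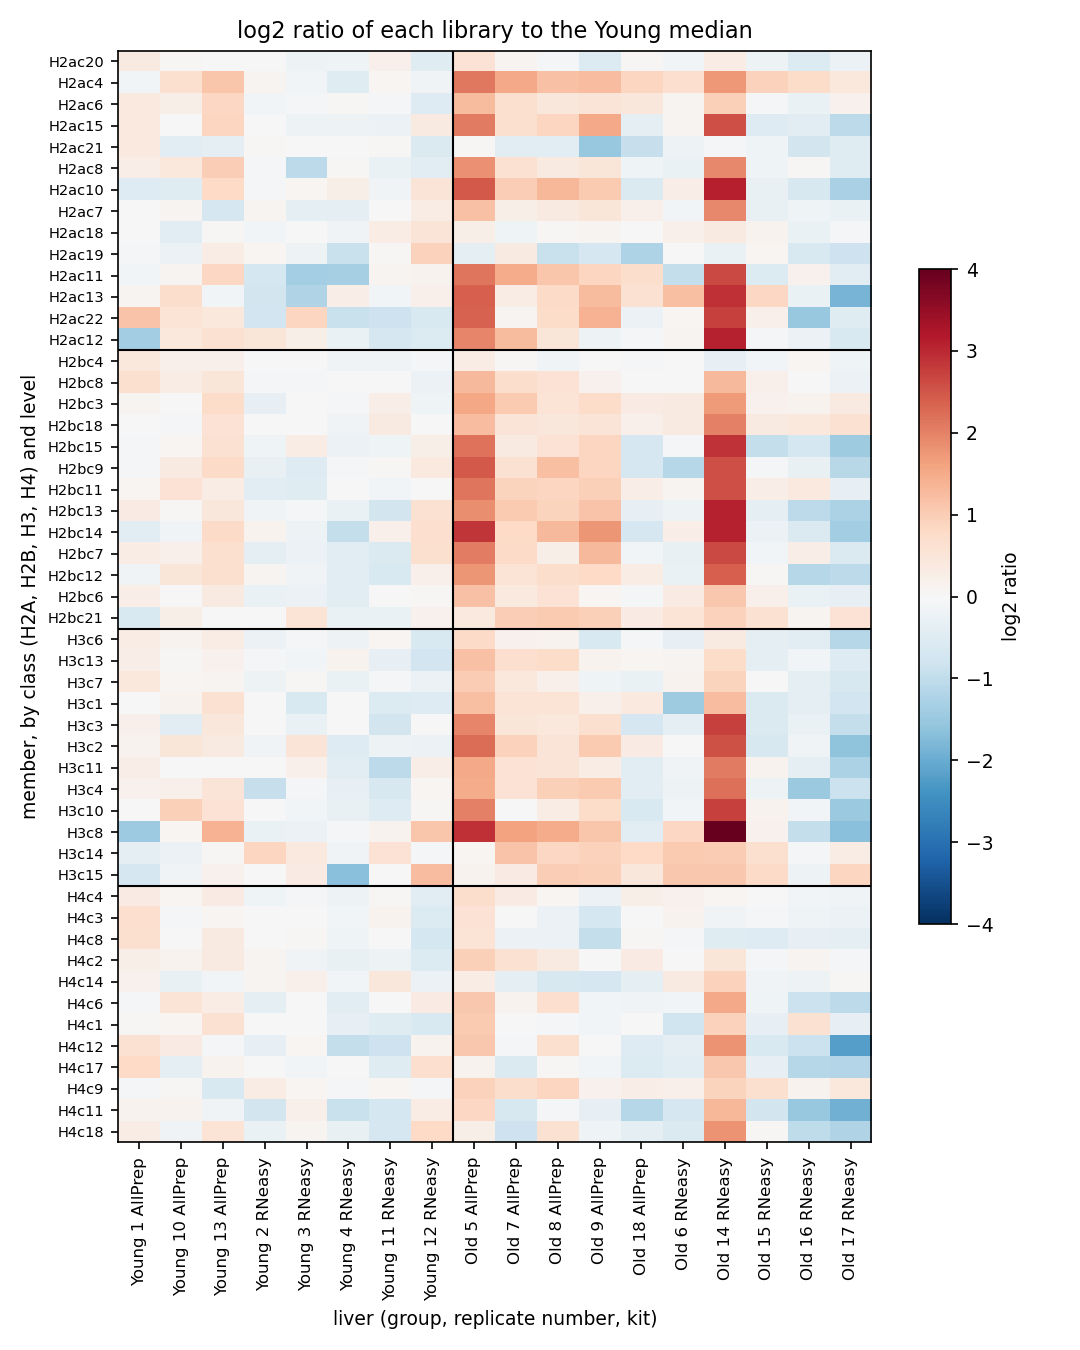
log2 ratio of each library to the Young median for the 51 members (rows, by class and level), with libraries in columns by age and kit; red is above and blue below the Young median. The columns of Old 5 and Old 14 are red over most H2A, H2B and H3 rows, with a median ratio of 2.84 and 3.82 over members under 20 scaled TPM, and pale over the leading H4 rows of Old 14.

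Genes of S phase and proliferation moved with the members in these livers, and their part in the result was not tested. The list held 40 genes, 33 of which reached the level for testing; for age, 1 was higher in Old livers (Pola1, a subunit of DNA polymerase alpha, 0.39) and 1 lower (Cdt1, a replication licensing factor, -0.54), and the median was 0.12. Its summed level was 261 scaled TPM in Old replicate 14 and 189 in Old replicate 5, against 147 to 179 in the other Old and 151 to 176 in the Young livers. Old replicate 14 was the highest of all 18 livers in 28 of the 40 genes, and none of the 40 was at 0 in any library. For the count of 28 the share of all genes was not counted.

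The genes picked next were chosen after their values were seen. Mki67, which encodes the proliferation marker Ki-67, was at 0.755 to 1.83 in the Young livers. It was at 11.0 in Old replicate 14, 4.87 in Old replicate 9, 4.43 in Old replicate 5 and at most 2.34 in the other livers. Rrm2, the small subunit of ribonucleotide reductase that makes the building blocks of DNA, was at 32.8 in Old replicate 14 and at 3.07 to 6.57 in the other 17. Ccne1, the cyclin E1 that starts S phase, was at 6.21 in Old replicate 14, 0.741 in Old replicate 5 and at most 1.68 elsewhere.

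Histone level did not follow Mki67 in every liver. The 41 low members summed to 493.0 scaled TPM in Old replicate 14 and 379 in Old replicate 5 but to 193 in Old replicate 9, whose Mki67 was as high as that of Old replicate 5. In the Young livers that sum ran from 125 to 192. The 10 abundant members summed to 628 in Old replicate 9, the lowest of all 18 livers, and to 629 in Young replicate 12.

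**Figure D5:**
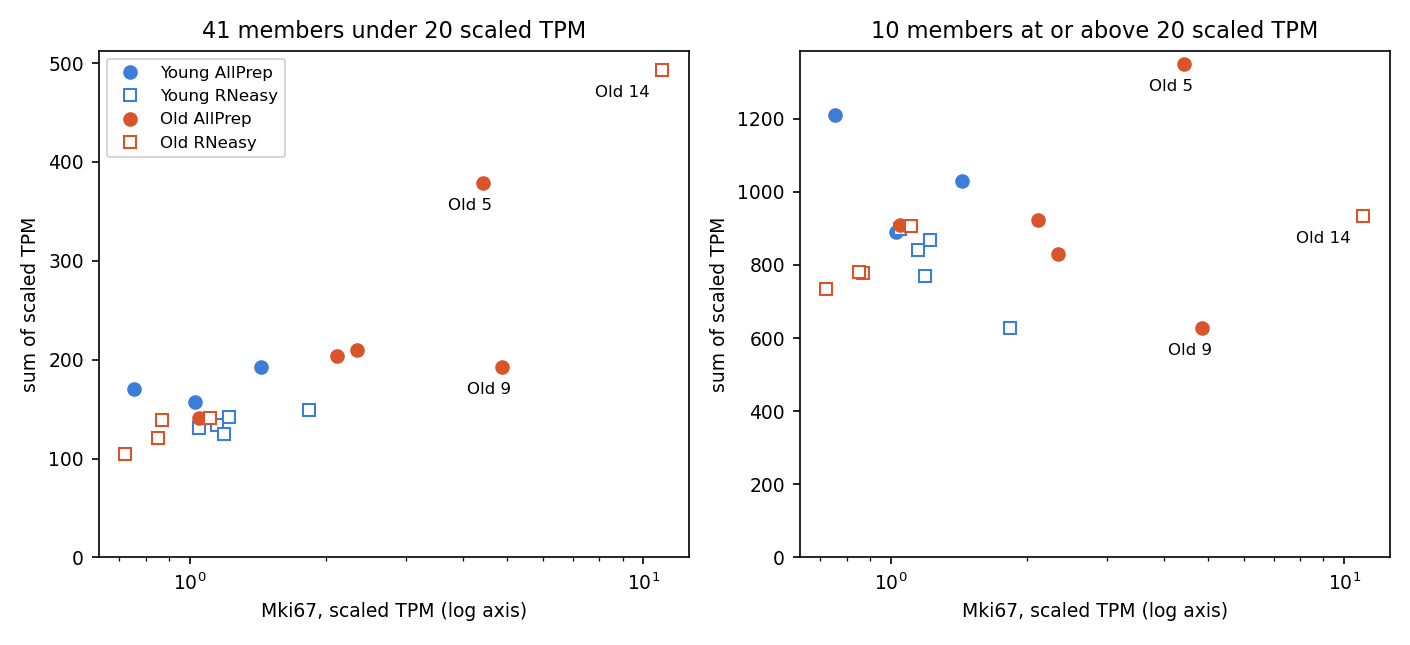
Summed scaled TPM of the 41 low members (left) and the 10 abundant members (right) in each liver against Mki67 on a log axis; colour is age and shape is kit. In the left panel Old 14 (493.0) and Old 5 (379) lie above all other livers, which reach 210, and Old 9 does not. In the right panel Old 5 (1350) is the highest and Old 14 (934) lies among the others.

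Kit was noted because histone mRNAs are short and mostly lack a tail. Members tended to be higher in AllPrep libraries. H2ac6, H4c2, H2bc4 and H3c1 were called higher in AllPrep and none lower, 4 of 50, where 5.65% of all genes were called higher and 12.6% lower. The median kit estimate was 0.31 against 0.01 over all genes, and 42 of 50 were positive, against 52.4% of all genes. Without a composition factor, which moves the median of all genes from 0.01 to -0.11, none was called higher and 1, H4c14, lower, with 40 of 50 still positive. Of all 13895 genes, 71 were then called higher and 2912 lower.

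H2ac6, an H2A gene, ran from 5.385 over a median of 6.34 to 10.8 scaled TPM in the 8 AllPrep livers and from 3.19 over 4.43 to 8.86 in the 10 RNeasy livers. The highest RNeasy value was that of Old replicate 14; the other 9 reached 5.17 and lay below every AllPrep liver. The kit estimate was 0.49 ± 0.14 (SE; limma, adjusted p = 0.0209). For H3c1, an H3 gene, AllPrep livers ran from 6.74 to 15.25, and RNeasy livers from 2.47 to 6.70 apart from 15.55 in Old replicate 14. Its estimate was 0.74 ± 0.24 (SE; limma, adjusted p = 0.0394), a call that was lost in 13 of the 18 fits that each left out 1 library.

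H4c2 ran from 47.1 over 60.4 to 90.5 in AllPrep and from 32.1 over 45.3 to 66.3 in RNeasy livers (0.39 ± 0.11, SE; limma, adjusted p = 0.0232). H2bc4, the H2B gene of highest level, ran from 57.4 over 68.9 to 85.0 and from 50.9 over 59.6 to 67.2, with overlap (0.22 ± 0.07, SE; limma, adjusted p = 0.0275). Both kits overlapped in these genes. Without Old replicates 5 and 14 the kit estimates were 0.52 for H2ac6, 0.84 for H3c1, 0.39 for H4c2 and 0.18 for H2bc4, and only H2bc4 of these 4 was then not called (limma, adjusted p = 0.0611). In the Young livers alone 2 members, H2bc4 and H2bc8, were called higher in AllPrep and 0 lower, where 1.1% of all genes were higher and 6.17% lower. In the Old livers alone limma called 0, where 0.525% of all genes were higher and 4.54% lower. There 1 member in each direction had an unadjusted limma p under 0.05. In the Young livers alone 18 of 50 members had, all of them higher in AllPrep. The share of all genes at that level was not counted in either fit.

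Old replicate 14, an RNeasy liver with high histone levels, weighed on this comparison. It was the highest of all 18 livers for 31 members, so leaving it out raises the AllPrep estimate of those members. The counts without this liver follow in part from that choice and are no separate test. Without Old replicate 14, 23 of 50 members were called higher in AllPrep and 0 lower, with a median of 0.54. Of all genes 8.95% were then called higher and 14.5% lower. Without Old replicates 5 and 14 it was 20 higher and 1 lower of 49, with 8.46% of all genes higher and 14% lower, spread over 5 H2A, 7 H2B, 5 H3 and 3 H4 genes. With limma library weights it was 18 higher and 1 lower, with 12.7% and 17.3% of all genes. Leaving out Old replicate 9 gave 8 higher (5.98% of all genes), Old replicate 5 gave 2 and Young replicate 13 gave 1. The counts without Old replicate 5 and without Young replicate 13 have no share of all genes beside them. Other short RNAs without a tail, a list of 18 snRNA, snoRNA and related genes, lay the other way: 13 of 18 were lower and 0 higher in AllPrep, with a median of -1.09, and their part in the histone difference was not tested.

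Markers of cell types also differed by kit, and their part in the histone kit difference was not tested. Of 13 macrophage markers 6 were higher in AllPrep, among them the macrophage genes Cd68 and Csf1r, with a median of 0.55. Of the other lists, 3 of 14 hepatocyte markers, 2 of 12 endothelial and stellate markers and 1 of 12 erythroid and progenitor markers were higher, with medians of 0.19, 0.09 and 0.09. No marker of these lists was lower. None was called among 6 neutrophil and megakaryocyte, 10 T and NK cell, 12 B and plasma cell and 5 cholangiocyte markers, with medians of 0.43, 0.14, 0.06 and -0.22.

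Whether the age difference itself differed between the kits was tested with an interaction term in limma. No member was called, as was no gene of 13895 (0%), and 0 members had an unadjusted p under 0.05, where 587 genes (4.22%) had. With limma-voom on the recovered reads no member was called either, and 0 had an unadjusted p under 0.05. The median interaction estimate over members was -0.02, and its sign depended on the setting: it was 0.285 without Old replicate 14 and -0.149 with limma-voom. For H4c9 the interaction was 0.35 (limma, adjusted p = 0.975).

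The labels give for each mouse the percent by which insulin suppressed endogenous glucose production, mostly by the liver, in the clamp. It ran from 68.4 to 92.0 in Young and from 25.4 to 68.4 in Old mice. With age and kit in the model, the slope of limma on this value was called for 0 of 50 members and 0 of 13895 genes (0%), and the smallest adjusted p of a member was 0.545. Without adjustment, 27 members had a p under 0.05, all with a positive slope, where 9.12% of all genes were under 0.05 in either direction and 3.45% with a positive slope. With limma-voom 28 members were under 0.05, against 8.68% of all genes, and 0 were called.

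The slope was positive for 48 of 50 members, against 47.2% of all genes, with a median of 0.17 log2 units per 10 percentage points. For example, it was 0.27 ± 0.10 (SE) for H2bc11, 0.17 ± 0.07 (SE) for H2bc8 and 0.16 ± 0.07 (SE) for H2ac4. It rested on Old replicates 5 and 14, which had suppressions of 68.4 and 55.7 and ranked 1 and 3 among the Old mice. Without Old replicate 14, 11 of 50 members had an unadjusted p under 0.05, against 6.94% of all genes in either direction. Without Old replicate 5, 9 of 50 members had, against 6.67% of all genes. Without both, 1 of 49 members had, with a negative slope, against 3.7% of all genes. The median without both was 0.00384, with 27 of 49 positive.

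Genes that make and destroy histone mRNA are next. Of 30 such genes 29 were tested for age: 1 was higher and 2 were lower in Old livers, with a median of -0.01. Npat, the coactivator that is needed for transcription of histone genes at the start of S phase, fell from 3.71 to 4.37 scaled TPM in Young to 2.70 to 3.72 in Old livers (-0.28 ± 0.06, SE; limma, adjusted p = 0.0148). The ranges overlapped by 1 Old liver. Xrn2, a nuclear exonuclease, was also lower (-0.27 ± 0.06, SE; limma, adjusted p = 0.0148), and Ncbp2, a subunit of the cap-binding complex, was higher (0.33 ± 0.07, SE; limma, adjusted p = 0.0172). Slbp, which binds the stem-loop shown above, was at 9.27 to 11.7 in Young and 9.67 to 12.5 in Old livers (0.03 ± 0.06, SE) and was not called.

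Of 10 tested replication-independent histone genes, among them the H3.3 genes H3f3a and H3f3b and the H2A.Z gene H2az1, 0 were called for age in limma or limma-voom and 0 had an unadjusted p under 0.05, where 2.44% of all genes were called higher and 2.47% lower. The list had a median of -0.04, with estimates of -0.05, -0.12 and -0.03 for the 3 named. None of the linker genes was called; H1f2 and H1f4, the most abundant, had estimates of -0.46 ± 0.15 (SE) and -0.44 ± 0.14 (SE), with limma adjusted p-values of 0.0741 and 0.075. Of 24 histone chaperone and import genes 1 was lower in Old livers, Ipo4, an importin that carries H3 and H4 into the nucleus (-0.21 ± 0.06, SE; limma, adjusted p = 0.0398).

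Marker genes of cell types were read from the same age fit, and their part in the histone differences was not tested. Of 12 tested B and plasma cell markers, 2 were higher in Old livers, the immunoglobulin genes Ighm (2.06) and Jchain (1.44), and the list summed to 148.5 to 209 scaled TPM in Young and 198 to 406 in Old livers, with 264.5 in Old replicate 5 and 378 in Old replicate 14. In limma and limma-voom no gene was called among 10 T and NK cell, 13 macrophage, 6 neutrophil and megakaryocyte, 12 endothelial and stellate and 5 cholangiocyte markers, of which 2, 4, 0, 3 and 2 in that order had an unadjusted p under 0.05. Kit, of the erythroid and progenitor list of 12, was lower (-0.63), as was Pck1 among 14 hepatocyte markers (-0.99). The hepatocyte list summed to 133800 to 178300 in Young and 136200 to 185300 in Old livers, and none of its genes was at 0 in any liver. The sums were 7.27 to 17.0 and 9.68 to 29.4 for T and NK cells, 422 to 898 and 426 to 1379 for macrophages, 1292 to 4611 and 446 to 10220 for the erythroid list, 9.44 to 36.3 and 10.4 to 130 for neutrophils, 284 to 409 and 314 to 425 for endothelial and stellate cells and 29.5 to 66.0 and 24.1 to 88.9 for cholangiocytes, in Young and Old livers in that order. Mpo and Ngp, granule genes of neutrophils, were at 0 in some libraries.

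The median age estimate of several marker lists was of the size of the members' 0.28 or above it. It was 0.28 over the macrophage markers (11 of 13 positive), 0.45 over the neutrophil and megakaryocyte markers (6 of 6), 0.45 over the B and plasma cell markers (12 of 12) and 0.22 over the T and NK cell markers (8 of 10). It was 0.15 over the endothelial and stellate markers (9 of 12), -0.105 over the hepatocyte markers (4 of 14), -0.14 over the erythroid and progenitor markers (2 of 12) and -0.20 over the cholangiocyte markers (1 of 5).

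Old replicates 5 and 14 were the 2 highest Old livers in 3.81% of all genes tested, as given above. Counted over all listed genes, they were so in 15 of 40 proliferation genes, 4 of 11 replication-independent histone genes, 3 of 14 hepatocyte markers and 3 of 24 chaperone and import genes. They were so in 1 of 30 genes of histone mRNA processing, 1 of 12 erythroid and progenitor and 1 of 13 B and plasma cell markers. They were so in none of the 14 T and NK cell, 13 macrophage, 10 neutrophil and megakaryocyte, 12 endothelial and stellate and 7 cholangiocyte markers or the 18 short RNAs.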

How the data were processed

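The deposited table holds TPM, which the authors made from reads per gene, gene length and library total. Per the submitters' processing notes the tools were STAR 2.7.9a and featureCounts of Subread, and the builds GRCm39 and mm10 stand there without a role. The sources used here give neither a strand setting nor a rule for reads that fit several genes. TPM summed to 1000000 in each library, and all 18 columns were assigned to mice. Values of a gene stood in ratios of whole numbers, which gave read numbers for 18946 of 18946 genes (100%, within 0.0001 of a whole number; 100% were also recovered from simulated data) and gene lengths, equal to RefSeq lengths for 49 of 51 members.

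TPM values were divided by a trimmed mean of log ratios (30% of ratios and 5% of levels trimmed). The filter asked for 0.5 TPM or more in 8 or more libraries and left 13895 genes. The model was limma 3.58.1 (R 4.3.3), with terms for age and kit and a variance trend, on log2(scaled TPM + 0.5) computed from the deposited values; Benjamini-Hochberg adjusted p-values below 0.05 are calls. Fold changes on this scale understate changes of low genes. P-values measure the spread between mice. Simulated libraries of 13872 genes had no kit effect. The age calls recovered 46.9% of 1.25-fold, 71.4% of 1.5-fold, 93.9% of 2-fold and 100% of 4-fold changes, with 6 false calls among 159. The changed genes were drawn from all genes that passed the filter, with noise drawn separately for each gene and library. No simulated liver stood apart across genes, and SEs of members for age reached 0.43 (H2bc14), so these shares need not hold for the members. Stem-loops and unique windows came from GENCODE transcripts (GRCm38), promoters from RefSeq (GRCm38.p6).

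Members named are those called for age or kit, the 2 of highest level per class and the 8 of smallest p for age; from other lists, the 3 of smallest p, and any further gene was chosen after its values were seen. Members and lists were chosen with earlier results of these data known. Alternatives were other scalings, filters, pseudocounts, library weights, limma-voom on recovered reads, kits or ages alone, body weight and leaving out each library; leaving out Old replicates 5 and 14 together, or Old replicate 5 for the slope, and limma-voom for slope and interaction were added after the data were seen. Python 3.11.15, numpy 2.4.6 and pandas 2.3.3 were used.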

Additional observations from a re-analysis of the deposited data

Results flagged for a closer look

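Of 46 groups of 8 or 10 livers looked at (the 18 members named by the rule and the class sums), 4 held a library far from the others; chance flags about 1 in 20 groups. H4c3 was at 333.9 scaled TPM in Young replicate 1 and at 143.8 to 233.6 in the other Young livers. H2bc18 was at 38.94 in Old replicate 14 and at 11.12 to 22.9 in the other Old livers. H3c15 was at 1.455 in Young replicate 12 and at 0.193 to 0.782 in the other Young livers. The sum over H4 genes was 1240 in Old replicate 5 and 556.6 to 893.2 in the other Old livers. Their causes were not tested.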

How the results depend on the processing

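The count of members higher in Old livers, 3 of 50, ran from 1 to 4 when each library was left out in turn, and was 0 in the AllPrep libraries alone, in the RNeasy libraries alone and with clamp weight as a further term; no alternative called a member lower. H2ac4 stayed called in 28, H4c9 in 25 and H2bc21 in 20 of 31 alternatives, with adjusted p-values up to 0.268, 0.446 and 0.661. The count of members higher in AllPrep, 4 of 50, ran from 1 to 23 when each library was left out. It was 0 without a composition factor, 18 with library weights, 20 without Old replicates 5 and 14, 2 in Young and 0 in Old libraries alone; 1 member was lower without a composition factor, with library weights and without Old replicates 5 and 14. Without a composition factor the share of higher among all genes called moved from 49.7% to 64.5% for age and from 30.9% to 2.38% for kit. The median slope fell to 0.00384 without Old replicates 5 and 14. Age estimates that turned were H3c1 (-0.148 with library weights, -0.082 to 0.248 when each library was left out, with the lowest without Old replicate 14, -0.163 without Old replicates 5 and 14, -0.029 in RNeasy alone), H2bc8 (-0.0133 without Old replicates 5 and 14), H4c4 (-0.0288 in AllPrep alone), H4c3 (0.000778 in RNeasy alone) and, with clamp weight, H2bc4 (0.0338), H2ac20 (0.281), H3c6 (0.0351) and H4c3 (0.345); none was called, and the cause was not tested. Among the 27 tested members with at least 50% unique windows in their reference transcript, 2 were higher and 0 lower in Old livers, with a median of 0.23. Fits of 1 kit or 1 age have fewer livers. Depth limits the 6 members with fewer than 10 reads in a library. No paired analysis was possible because no replicate number occurs in both groups.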

Other observations

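Among the proliferation genes, Mcm10 and E2f8 were at their lowest of all 18 livers in Old replicate 14. Mcm10, a replication initiation factor, was at 6.54 scaled TPM there, the lowest of the Old livers, and at 32.3 to 36.2 in the Young livers, with a median of 27.3 in the Old (age estimate -0.56 ± 0.24, SE; limma, adjusted p = 0.168). E2f8, a repressor of the E2F family, was at 4.31 in Old replicate 14 and at 6.68 to 18.5 in the Young livers. Uhrf1, which keeps DNA methylation through replication, was 22.9 times its Young median in the same liver, at 5.07 against 0.0949 to 0.425 in Young livers and 1.31 in Old replicate 5. The replication clamp gene Pcna was at 32.4 there and at 27.6 to 39.1 in Young livers.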
